A study of Mus musculus with 2 samples.

Results

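Melanoma cells taken from the bones of perforin-deficient mice were compared with melanoma cells taken from the lungs of perforin-deficient mice, across all genes. The tumour cells were B16F10, a mouse melanoma line that colonises lung after reaching the blood, carrying GFP. The hosts were Prf1-/-, lacking perforin, the pore-forming protein with which cytotoxic lymphocytes kill their targets. Both groups share that host genotype, and a group from WT (wild-type) lung is given beside them for its levels. Lung tumours were resected and digested for 20 min, while knees were crushed and digested for 30 min, both at 37 °C, so anatomical site and tissue handling cannot be told apart. GFP+CD45-DAPI- cells were sorted, marked with hashtag antibodies (an antibody carrying a short oligonucleotide that names the source), pooled and run as 1 single-cell RNA library with 1 hashtag library. Cells were kept where the RNA barcode held at least 1000 genes and at most 15% mitochondrial UMIs (unique molecular identifiers, each counting 1 captured transcript), was also listed in the hashtag matrix, and had a largest hashtag count at least 2 times the second. This gave 385 Prf1-/- bone cells and 1520 Prf1-/- lung cells, 1905 of 15961 RNA barcodes, and 1227 WT lung cells. How many mice supplied each group was not given in the labels, and a cell is not a replicate. There is 1 hashtag group on each side, so no test was made, every interval covers counting error only, and a difference from mouse to mouse cannot be told apart from one between bone and lung.

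Depth per cell was alike in the 3 groups, while the pooled depth was lowest in Prf1-/- bone. The cells summed to 1299480 UMIs in Prf1-/- bone, 4726709 in Prf1-/- lung and 3865546 in WT lung, with medians of 3107, 2826.5 and 2909 UMIs per cell. Per the labels the sources were pooled in equal proportions, but Prf1-/- bone made up 11.4% of the listed barcodes that passed the cell filter, against 45.1% for Prf1-/- lung and 36.4% for WT lung. At least 3 of 10 melanoma marker genes were detected in 99.7% of bone cells and 100% of Prf1-/- lung cells, so the sorted cells carried the labelled identity. Prf1 had 0 UMIs in the kept cells of both Prf1-/- groups; it is a gene of lymphocytes, so these tumour cells do not check the host genotype. Levels below are UMIs per 1000000 UMIs of the group (CPM), and a ratio is the bone level over the Prf1-/- lung level with its 95% exact interval. A gene counts as measured where the mean of the 2 groups was at least 20 CPM, and as higher or lower where the ratio passed 1.5-fold.

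Of the 15 genes named below as higher in bone, 4 serve antigen presentation. Cells cut proteins in the proteasome, pump the peptides into the endoplasmic reticulum through the Tap transporter and show them on MHC class I to CD8 T cells; interferon-gamma exchanges the catalytic proteasome subunits for immunoproteasome forms and switches on GTPases that attack intracellular pathogens. MHC class II, which presents to CD4 T cells, is made mostly by professional antigen-presenting cells and can be induced by interferon-gamma in melanoma cells. Perforin-dependent killing by CD8 T cells follows recognition of peptides on MHC class I.

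Promoter stretches of genes on which the comparison turns are shown because the known regulators of these genes read short sequences near the start. They come from RefSeq on GRCm38.p6, the patch release of the mm10 build, run 5′ to 3′ towards the gene and have motif matches in capitals. The first lies between the starts of Psmb9 and Tap1, which are transcribed away from each other, at chr17:34187331-34187555, and its capitals mark the Y box CTGATTGG, here read on the other strand. The second lies before H2-Aa at chr17:34287824-34288073 on the minus strand, with the cAMP response element TGACGTCA, the X2 box of class II promoters, at 74 to 67 bases before the right-hand end and the Y box at 51 to 44. The third lies before Gbp7 at chr3:142530086-142530335 on the plus strand, with 2 matches to the gamma-activated sequence core TTCNNNGAA and 1 to the core of the interferon-stimulated response element, read on the other strand. The fourth lies before Cck at chr9:121495695-121495944 on the minus strand, with the E box CACGTG and the CRE-like TGCGTCA, which do not overlap.
Psmb9-Tap1: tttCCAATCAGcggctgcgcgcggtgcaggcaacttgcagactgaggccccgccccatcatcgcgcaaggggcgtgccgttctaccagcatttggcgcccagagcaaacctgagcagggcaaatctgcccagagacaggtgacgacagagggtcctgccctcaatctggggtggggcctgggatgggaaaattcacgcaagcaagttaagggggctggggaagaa
H2-Aa: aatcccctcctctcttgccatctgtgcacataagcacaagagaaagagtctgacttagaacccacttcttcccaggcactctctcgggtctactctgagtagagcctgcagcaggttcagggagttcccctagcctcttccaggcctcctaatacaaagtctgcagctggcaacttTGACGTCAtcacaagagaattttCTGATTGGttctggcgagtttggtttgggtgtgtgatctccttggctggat
Gbp7: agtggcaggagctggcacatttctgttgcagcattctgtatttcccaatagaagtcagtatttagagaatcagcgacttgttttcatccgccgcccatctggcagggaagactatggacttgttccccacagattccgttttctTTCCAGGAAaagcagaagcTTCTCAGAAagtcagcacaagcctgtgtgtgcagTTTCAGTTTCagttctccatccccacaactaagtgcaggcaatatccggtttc
Cck: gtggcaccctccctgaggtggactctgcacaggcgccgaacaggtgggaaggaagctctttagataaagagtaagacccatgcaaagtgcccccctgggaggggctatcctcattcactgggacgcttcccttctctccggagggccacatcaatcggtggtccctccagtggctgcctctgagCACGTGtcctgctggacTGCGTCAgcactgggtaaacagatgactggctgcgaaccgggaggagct

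Read over both strands, these letters were found in a modest share of all 32851 promoter windows of 250 bases: the gamma-activated core in 7.02%, the interferon-stimulated core in 2.98%, TGACGTCA in 1.55%, the Y box in 3.83%, TGCGTCA in 1.75% and CACGTG in 6.02%. Of the 15 interferon-inducible GTPase genes 10 had a promoter entry, 9 of them with the interferon-stimulated core and 6 with the gamma-activated core. The 5 immunoproteasome genes, all with an entry, had the interferon-stimulated core in 0 and the gamma-activated core in 1 (Psmb8). Of the 15 genes named by rule as higher in bone 10 had an entry, 1 with the interferon-stimulated core and 2 with the gamma-activated core. The Y box stood before 6 of 15 matched MHC class I genes and 3 of 7 matched class II genes. A match is a description of letters in the window, not a bound site.

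Of 5657 measured genes, 130 (2.3%) were higher and 267 (4.72%) lower in bone. These shares are the background for every count of list members given here. The lists were chosen with earlier results of these data known, so such counts are descriptions. As a yardstick from the same run, 0.852% of genes passed 1.5-fold in either direction between Prf1-/- lung and WT lung, against 7.02% between bone and Prf1-/- lung; bone has the fewest cells, and among genes at a mean of at least 100 CPM, where counting error is smaller, the shares were 0.247% and 3.86%. The median log2 ratio over all measured genes was -0.02. The 15 genes named on each side had the most extreme ratios among those with an interval wholly beyond 1.5-fold and at least 50 UMIs over both groups, and all 30 lay outside the levels of both lung groups. Over all measured genes bone lay above both lung groups for 38.2% and below both for 43.6%.

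**Figure D1:**
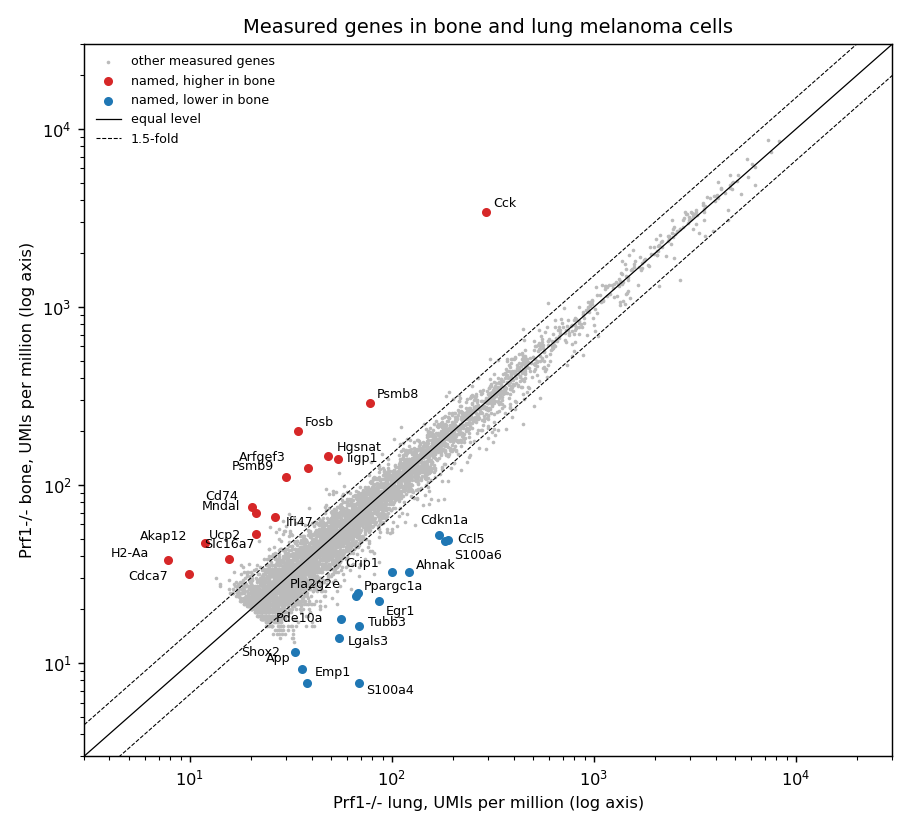
Levels of the 5657 measured genes in Prf1-/- lung (x axis) and Prf1-/- bone (y axis), in CPM on log axes; each point is a gene, the solid line marks equal levels and the dashed lines 1.5-fold. Most genes lie along the line of equal levels, while Cck stands farthest above it and S100a4 farthest below.

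**Figure D2:**
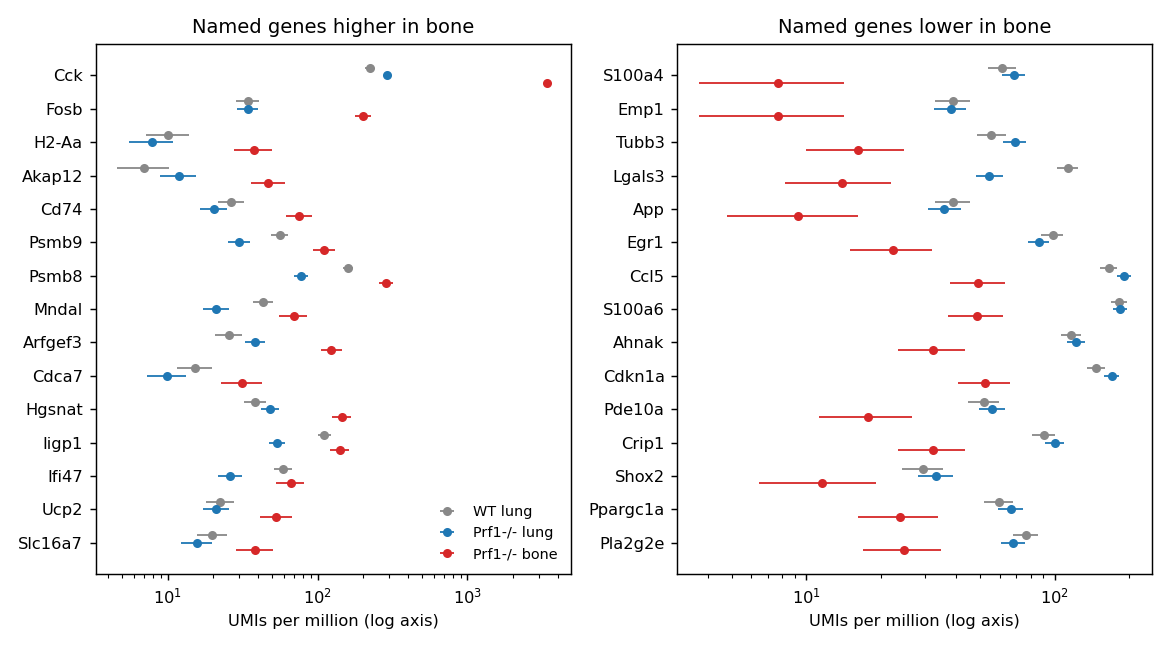
Levels of the 15 named genes higher and the 15 lower in bone, in CPM on a log axis, for WT lung, Prf1-/- lung and Prf1-/- bone; bars are 95% exact Poisson intervals, which cover counting error only. For every gene the bone point lies outside the 2 lung points. Genes with WT lung nearer to bone than Prf1-/- lung is include Psmb8, Psmb9, Mndal, Iigp1, Ifi47 and Cdkn1a. For others, Cck, Akap12 and Lgals3 among them, Prf1-/- lung is the nearer.

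All 5 immunoproteasome genes were higher in bone, and their summed level was 973 CPM in bone, 440.3 in Prf1-/- lung and 701 in WT lung. Psmb8, the chymotrypsin-like catalytic subunit, stood at 287 CPM in bone, 77.9 in Prf1-/- lung and 160.1 in WT lung, a ratio of 3.69 (3.18 to 4.27). Psmb9, a catalytic subunit encoded beside Tap1, stood at 111, 30.0 and 55.9 CPM, a ratio of 3.69 (2.90 to 4.68). Bone was the highest of the 3 groups for both, and Prf1-/- lung the lowest. The third catalytic subunit gene Psmb10 had a ratio of 1.91 (1.64 to 2.21), and Psme1 and Psme2, which encode the interferon-inducible proteasome activator, had ratios of 1.53 (1.31 to 1.79) and 1.77 (1.51 to 2.08). The 20 measured genes of the constitutive proteasome included none past 1.5-fold, with a median log2 ratio of 0.16 beside 0.93 for the immunoproteasome and -0.02 over all measured genes. Psmb5, Psmb6 and Psmb7, which encode the subunits that the immunoproteasome forms replace, had ratios of 0.977, 1.11 and 0.929.

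MHC class I genes were less far apart. Of 19 genes listed 9 were measured, 8 of them with a ratio above 1 and 2 higher by 1.5-fold, and the median log2 ratio was 0.32. Over all measured genes 47.1% had a ratio above 1 and 2.3% were higher by 1.5-fold. Tap1, a subunit of the peptide transporter, stood at 65.4 CPM in bone, 32.8 in Prf1-/- lung and 47.3 in WT lung, for a ratio of 1.99 (1.51 to 2.62). The class I heavy chain genes H2-K1 and H2-D1 had ratios of 1.51 (1.38 to 1.65) and 1.39 (1.29 to 1.499). For B2m, the light chain, the ratio was 1.08 (1.01 to 1.14), the peptide-loading tapasin gene Tapbp 1.06 (0.755 to 1.47) and the chaperone gene Canx 0.892 (0.802 to 0.989), so the chains, the transporter and the chaperones did not share 1 ratio.

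The MHC class II genes were low in all groups and highest in bone. The 10 listed genes summed to 202 CPM in bone, 50.6 in Prf1-/- lung and 74.2 in WT lung, a ratio of 4.00 (3.35 to 4.79). Cd74, the invariant chain that guards the class II groove, stood at 75.4, 20.3 and 26.6 CPM in that order, a ratio of 3.71 (2.77 to 4.97), and 17.4% of bone cells against 4.14% of Prf1-/- lung cells held a UMI of it. H2-Aa, an alpha chain gene, stood at 37.7, 7.83 and 10.1 CPM, a ratio of 4.82 (3.08 to 7.59). These 2 were the only measured members. Below the filter lay the beta chain genes H2-Ab1 at 27.7 CPM against 3.81 and H2-Eb1 at 16.2 against 2.75, the peptide-exchange genes H2-DMa at 13.9 against 4.44 and H2-DMb1 at 27.7 against 10.8, and Ciita, the class II transactivator, with 3 UMIs in bone and 2 in Prf1-/- lung. H2-Oa and H2-Ob had no UMI in any group.

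Markers of immune cells were low in both Prf1-/- groups. Ptprc, Csf1r, Adgre1, Itgam, Flt3, Xcr1 and Tyrobp had 0 UMIs in both Prf1-/- groups, which by the 95% exact Poisson interval allows up to 2.84 CPM in bone. The 14 monocyte, macrophage and dendritic cell markers summed to 17.7 CPM in bone, 10.4 in Prf1-/- lung and 26.1 in WT lung, with 8, 9 and 9 members at 0; the ratio of bone to Prf1-/- lung was 1.71 (0.993 to 2.86). Among them Fcer1g, an Fc receptor subunit gene, had 14 UMIs in bone and 26 in Prf1-/- lung, a ratio of 1.96 (0.945 to 3.89). The 6 pan-immune markers summed to 3.08, 1.69 and 0.259 CPM, with 3, 5 and 5 at 0 and a ratio of 1.82 (0.401 to 6.79). All 13 T and NK cell markers were at 0 in both Prf1-/- groups, and the 8 B and plasma cell markers summed to 4.62 CPM in bone and 2.33 in Prf1-/- lung, a ratio of 1.98 (0.602 to 5.85). Cd79a, a B cell receptor subunit gene, had 5 UMIs in bone and 2 in Prf1-/- lung, a ratio of 9.09 (1.49 to 95.5). Leaving out every cell with a UMI of 16 markers of other cell types, with Cd79a among them and Fcer1g not, left 353 bone and 1448 lung cells, after which the class II median log2 ratio was 2.07, against 2.08 in all cells, and all 30 named genes were still past 1.5-fold in the same direction. In bone the most frequent of the 16 markers was the lung epithelial gene Sftpc, in 19 cells at 1 UMI each, while Ptprc and Csf1r had 0 UMIs. The removal thus took out few bone cells with immune markers and cannot decide what presenting cells add. The part of cells with Fcer1g in the class II difference was not tested.

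The interferon-inducible GTPases were higher in bone in all 6 measured of 15 listed, with a median log2 ratio of 0.99. Iigp1, an immunity-related GTPase of the vacuole membrane, stood at 141 CPM in bone, 53.9 in Prf1-/- lung and 111 in WT lung, a ratio of 2.61 (2.15 to 3.17). Ifi47, another GTPase of this family, had a ratio of 2.52 (1.89 to 3.35), Gbp7 2.01 (1.60 to 2.51), Igtp 1.96 (1.46 to 2.61), Gbp2 1.83 (1.35 to 2.46) and Irgm1 1.71 (1.25 to 2.32). Their bone levels lay close to those of WT lung: the 15 genes summed to 556 CPM in bone and 494 in WT lung, beside 264 in Prf1-/- lung, and Gbp2 was at 53.1 CPM in bone against 64.4 in WT lung. Gbp4, below the filter, had 26.2 CPM in bone and 4.65 in Prf1-/- lung.

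The effector genes of type I interferon differed less. Of 27 measured genes 4 were higher and none lower, with a median log2 ratio of 0.16. Mndal, a nuclear interferon-inducible DNA-binding protein gene, stood at 69.3 CPM in bone, 21.2 in Prf1-/- lung and 43.2 in WT lung, for a ratio of 3.27 (2.43 to 4.40). The nucleic acid sensor gene Zbp1 had a ratio of 2.07 (1.53 to 2.78), Apol9b 1.88 (1.40 to 2.52) and Apol9a 1.81 (1.36 to 2.38); Apol9a and Apol9b are near-identical neighbours, so how reads were divided between them is uncertain. The antiviral genes Ifit1, Ifit3 and Isg15, the classical marks of a type I response, had ratios of 0.916 (0.697 to 1.19), 1.02 (0.834 to 1.23) and 0.959 (0.723 to 1.26). For these genes WT lung was above both Prf1-/- groups, with Ifit3 at 187 CPM there, 104 in bone and 102 in Prf1-/- lung. Of 10 measured interferon receptor and signalling genes none was higher and 2 were lower, the feedback inhibitor Socs3 with a ratio of 0.457 (0.301 to 0.669) and Irf9 with 0.602 (0.365 to 0.949); Irf1 had a ratio of 1.01 (0.664 to 1.49).

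These antigen presentation levels moved with the hashtag count of a cell. Mouse TotalSeq hashtag reagents are antibodies to CD45 and MHC class I as a rule; which clones were used is not stated in the labels. The median largest hashtag count was 576 in bone, 925 in Prf1-/- lung and 588 in WT lung, and hashtags of different oligonucleotides may not be comparable between groups. In every group the immunoproteasome sum was higher among cells of 1000 or more hashtag counts than among cells under 400: 1464 against 534 CPM in bone, 558 against 297 in Prf1-/- lung and 1037 against 458 in WT lung. Compared within a range of hashtag counts, the bone to Prf1-/- lung ratio of that sum was 1.80 (1.31 to 2.47) under 400, 2.74 (2.34 to 3.21) from 400 to under 600, 3.13 (2.76 to 3.55) from 600 to under 1000 and 2.63 (2.28 to 3.01) at 1000 or more, with 56, 149, 136 and 44 bone cells. The ratio stayed above 1 in each range and was larger than over all cells (2.21) in all but the lowest. Psmb8 had ratios of 2.78 (1.32 to 6.17), 9.28 (5.77 to 15.6), 6.13 (4.60 to 8.23) and 4.38 (3.40 to 5.60) over the same ranges, and the class II sum had 13.8 (7.13 to 30.0), 8.54 (5.85 to 12.7) and 4.45 (3.30 to 5.94) over the upper 3. Barcodes absent from the hashtag matrix belong to no group, and how their absence bears on these ratios was not tested.

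**Figure D3:**
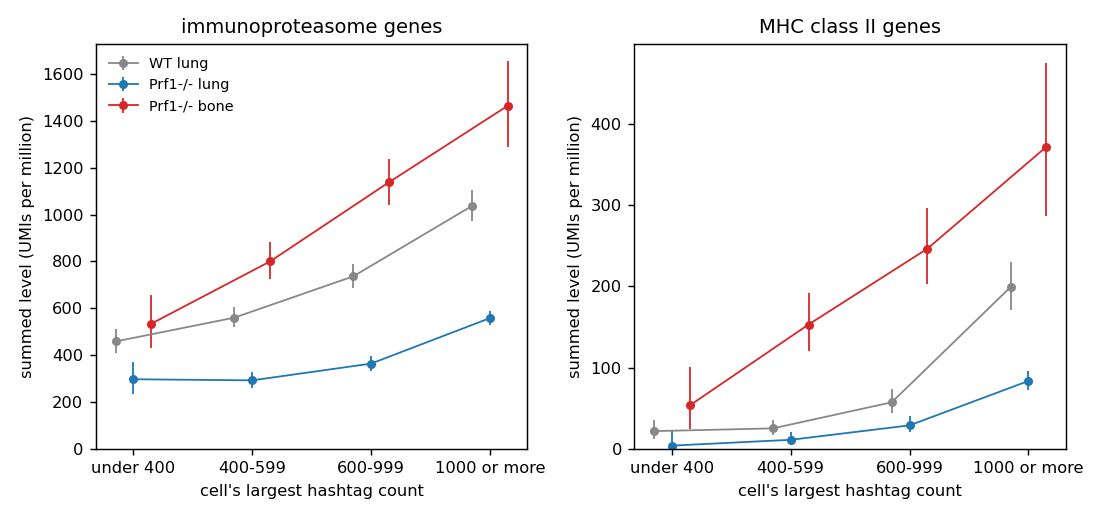
Summed levels of the 5 immunoproteasome genes (left) and the 10 MHC class II genes (right), in CPM, by the cell's largest hashtag count in 4 ranges, for WT lung, Prf1-/- lung and Prf1-/- bone; bars are 95% exact Poisson intervals (counting error only). Both sums are higher at high hashtag counts in each group, and within each range bone is the highest and Prf1-/- lung the lowest.

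Cck, which encodes the gut and brain peptide hormone cholecystokinin, had the largest ratio of all measured genes. It stood at 3402 CPM in bone, 293 in Prf1-/- lung and 223 in WT lung, for a ratio of 11.6 (10.9 to 12.4). The difference lay in a minority of cells: 97 of 385 bone cells (25.2%, Clopper-Pearson interval 20.9 to 29.8) held at least 10 Cck UMIs, against 38 of 1520 Prf1-/- lung cells (2.50%, 1.78 to 3.42) and 24 of 1227 WT lung cells (1.96%, 1.26 to 2.90). Those bone cells held 96.8% of the Cck UMIs of bone, with a median of 41 and a maximum of 134 in 1 cell. With every cell thinned to 2000 UMIs, which left out 19 bone, 148 Prf1-/- lung and 117 WT lung cells, the shares were 22.1%, 1.60% and 1.26%. Any Cck UMI was found in 38.7% of bone cells (median 3107 UMIs per cell), 11.8% of Prf1-/- lung cells and, as a check on free RNA, 7.69% of 78 barcodes rich in the lung epithelial gene Sftpc (median 581 UMIs), none of which held 10. Within ranges of hashtag count the Cck ratio lay between 10.1 and 12.9. Near the limit, 11 bone cells held 5 to 9 Cck UMIs and 12 held 10 to 14, against 24 and 14 Prf1-/- lung cells and 18 and 7 WT lung cells, so the lung shares turn more on where the limit lies than the bone share.

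**Figure D4:**
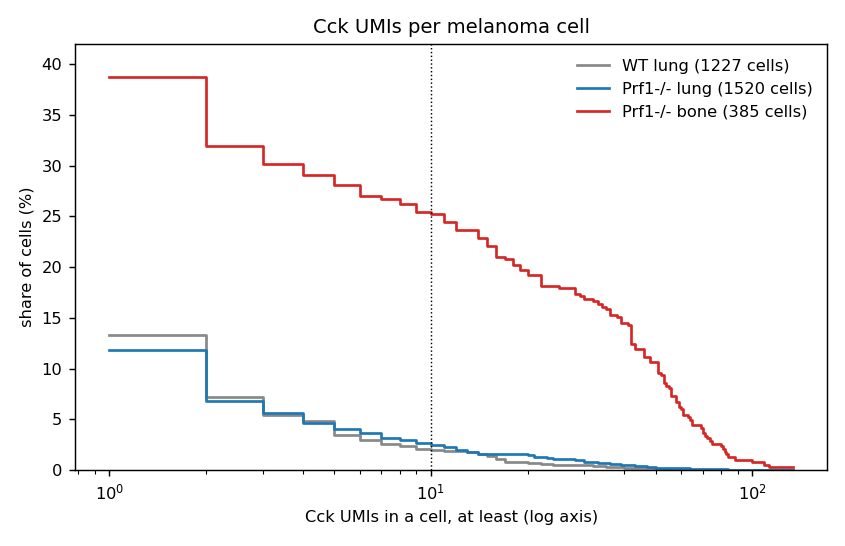
Share of cells (y axis, %) with at least the number of Cck UMIs on the x axis (log axis), for WT lung, Prf1-/- lung and Prf1-/- bone; the dotted line marks 10 UMIs. The bone curve lies above both lung curves, with 25.2% of bone cells at 10 or more, while the 2 lung curves overlap.

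Several other genes named as higher in bone were highest in these Cck-rich cells. Arfgef3, a regulator of secretory granules, stood at 305 CPM in the 97 Cck-rich bone cells and 61.1 in the other 288, and the lysosomal acetyltransferase gene Hgsnat at 269 and 103. The mitochondrial carrier gene Ucp2 stood at 95.7 and 38.3, and the monocarboxylate transporter gene Slc16a7 at 59.8 and 31.1. Among the cells without 10 Cck UMIs, bone against Prf1-/- lung, the ratios were 1.76 for Arfgef3 (3.24 over all cells), 2.13 for Hgsnat (3.02), 1.90 for Ucp2 (2.51) and 2.01 for Slc16a7 (2.46), and that of Cck itself was 1.92 (1.57 to 2.35). The antigen presentation genes did not follow this division. The class II sum was 206 CPM in Cck-rich bone cells and 201 in the others, the GTPase sum 553 and 558, and Psmb9 was lower in the Cck-rich cells at 62.8 against 127. The mitotic gene sum was 3214 against 4755 and the melanosome sum 18017 against 14204. Cells were divided here by their Cck UMIs, so these are descriptions of 2 parts of 1 sample.

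No measured processing partner of a peptide hormone was higher along with Cck except Tpst2, the tyrosine sulphotransferase gene, with a ratio of 1.95 (1.27 to 2.97). Cpe, which trims prohormones, had a ratio of 0.591 (0.489 to 0.709), the signal peptidase subunit gene Sec11c 0.562 (0.492 to 0.639) and Enho, which encodes the secreted peptide adropin, 0.592 (0.516 to 0.678). The prohormone convertase genes Pcsk1 and Pcsk2 and the receptor genes Cckar and Cckbr had 0 UMIs in every group.

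Fosb, an AP-1 transcription factor gene, had the second largest ratio. It stood at 200.1 CPM in bone and at 34.3 and 34.1 in Prf1-/- and WT lung, a ratio of 5.84 (4.78 to 7.15), with a UMI in 40.8% of bone cells against 8.42% of Prf1-/- lung cells. The 2 lung groups had the same level within counting error and bone stood apart from both. Of the 22 measured AP-1 and immediate-early genes, Fosb was the 1 past 1.5-fold upwards, 7 were lower and 14 lay within 1.5-fold, with a median log2 ratio of -0.41. Egr1, a zinc-finger immediate-early gene, stood at 22.3 CPM in bone, 86.1 in Prf1-/- lung and 98.0 in WT lung, 3.86-fold (2.65 to 5.84) lower. Atf3, Junb, Nr4a1 and Nr4a3 had ratios of 0.403 (0.262 to 0.596), 0.466 (0.378 to 0.569), 0.470 (0.302 to 0.704) and 0.474 (0.320 to 0.684), while Fos had 0.943 (0.871 to 1.02), Jun 1.31 (1.21 to 1.40) and Jund 1.49 (1.34 to 1.65). Immediate-early genes are known to respond to tissue dissociation, and knees and lungs were digested for different times; that part was not tested. The measured heat shock chaperones, another group sensitive to handling, had a median log2 ratio of 0.02, with Dnajb1 at 0.603 (0.490 to 0.736). Among these 18 none was higher and 2 were lower. The 3 members below the filter summed to 37.7 CPM in bone and 16.1 in Prf1-/- lung, a ratio of 2.35 (1.60 to 3.40).

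The remaining named genes fell outside these groups. Akap12, a scaffold for protein kinase A, stood at 46.9 CPM in bone, 11.8 in Prf1-/- lung and 6.98 in WT lung, a ratio of 3.96 (2.71 to 5.80). Cdca7, a DNA replication-linked gene, had a ratio of 3.17 (2.04 to 4.93) on 41 bone UMIs.

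S100 calcium-binding protein genes were lower in bone in 6 of 7 measured members, beside 4.72% of all measured genes, and none was higher. S100a4, linked to motility and metastasis in many tumours, stood at 7.69 CPM in bone, 68.3 in Prf1-/- lung and 61.6 in WT lung, 8.88-fold (4.77 to 18.7) lower, on 10 bone UMIs. S100a6 stood at 48.5, 183 and 182 CPM, 3.77-fold (2.92 to 4.96) lower. S100a1, S100a13, S100a10 and S100b had ratios of 0.498, 0.554, 0.605 and 0.639, and S100a11 had 0.882 (0.781 to 0.993). The lung groups were alike for these genes. The S100a6 ratio moved with the hashtag count, from 0.078 (0.021 to 0.207) under 400 to 0.783 (0.496 to 1.18) among the 44 bone cells of 1000 or more. Over all bone cells 1 cell held 12 of the 63 S100a6 UMIs.

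Mesenchymal and neural-like genes, a group linked to less differentiated melanoma states, were lower in 8 of 12 measured members, with none higher and a median log2 ratio of -0.92. Over all measured genes 4.72% were lower. This list was chosen with earlier results of these data known, so its count describes the list and is no independent support. The intermediate filament gene Vim, the most abundant, stood at 1411 CPM in bone, 2662 in Prf1-/- lung and 2404 in WT lung, a ratio of 0.530 (0.504 to 0.557), and between 0.465 and 0.559 in the 4 ranges of hashtag count. The membrane protein gene Emp1 was 4.95-fold (2.63 to 10.5) lower on 10 bone UMIs, Tubb3, a tubulin of neurons, 4.27-fold (2.75 to 6.99), App, whose product is cut to amyloid peptides, 3.89-fold (2.17 to 7.69) and the giant scaffold gene Ahnak 3.76-fold (2.75 to 5.28). Cd44, a hyaluronan receptor gene, had a ratio of 0.597 (0.508 to 0.697), the cadherin gene Cdh2 0.527 (0.316 to 0.836) and the neuregulin receptor gene Erbb3 0.492 (0.310 to 0.749). Sparc, Fn1, Nrp1 and Nrp2 were within 1.5-fold, with ratios of 0.890, 1.22, 1.11 and 0.759.

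Galectins and other named genes lower in bone were less uniform. Lgals3, the galectin-3 gene, stood at 13.9 CPM in bone, 54.6 in Prf1-/- lung and 113 in WT lung, 3.94-fold (2.44 to 6.76) lower, with 8 of its 18 bone UMIs in 1 cell. The other 4 measured galectins were within 1.5-fold. Crip1, a small LIM-domain protein gene, was 3.09-fold (2.25 to 4.34) lower, the phosphodiesterase gene Pde10a 3.17-fold (2.07 to 5.08), the homeobox gene Shox2 2.88-fold (1.69 to 5.26) and the secreted phospholipase gene Pla2g2e 2.77-fold (1.92 to 4.11).

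Most pigment cell genes had a ratio below 1, and few passed 1.5-fold. Of 26 measured melanin synthesis and melanosome genes, 24 had a ratio below 1 and 4 passed 1.5-fold, none upwards, with a median log2 ratio of -0.38; below 1 lay 52.9% of all measured genes. Mlana, a melanosome protein gene, stood at 1304 CPM in bone, 2104 in Prf1-/- lung and 2084 in WT lung, for a ratio of 0.620 (0.588 to 0.653). The melanin enzymes Dct, Tyrp1 and Tyr had ratios of 0.682 (0.657 to 0.707), 0.760 (0.728 to 0.794) and 0.772 (0.657 to 0.904), the fibril gene Pmel 0.884 (0.854 to 0.915) and the transporter gene Slc45a2 0.982 (0.901 to 1.07). Of 10 measured lineage transcription factors 2 were lower: Tfap2a with a ratio of 0.597 (0.394 to 0.876) and the coactivator gene Ppargc1a, which sets mitochondrial content, 2.78-fold (1.92 to 4.17) lower. Mitf, the master regulator of melanocytes, had a ratio of 0.892 (0.808 to 0.983) and Sox10 0.839 (0.696 to 1.01).

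p53 targets were lower in bone in 4 of 12 measured, with none higher and a median log2 ratio of -0.48. Over all measured genes 4.72% were lower. Cdkn1a, which encodes the cell-cycle inhibitor p21, stood at 52.3 CPM in bone, 170.1 in Prf1-/- lung and 146 in WT lung, 3.25-fold (2.54 to 4.23) lower. Plk2, Phlda3 and Ccng1 had ratios of 0.514 (0.327 to 0.778), 0.618 (0.487 to 0.777) and 0.657 (0.467 to 0.906), and Trp53 itself 1.02 (0.806 to 1.28). Beside this, 56.9% of bone cells (51.8 to 61.9) held at least 2 UMIs of 12 cycling genes, against 42.6% of Prf1-/- lung cells (40.1 to 45.2) and 45.1% of WT lung cells. Thinned to 2000 UMIs the shares were 50.3%, 38.0% and 41.7%, and the barcodes rich in Sftpc stood at 8.97% at their own depth. Of 39 measured S-phase genes 5 were higher and none lower (median log2 ratio 0.30), among them the replication-licensing gene Cdt1 at 2.22 (1.68 to 2.91), while of 47 measured mitotic genes only Hmgb2 passed, at 1.504 (1.34 to 1.69), with a median of 0.09. Of 12 measured G1 cyclins and inhibitors 1 was higher and 2 were lower, beside 2.3% and 4.72% of all measured genes, with a median log2 ratio of -0.07. The D-type cyclin gene Ccnd2 had a ratio of 0.569 (0.511 to 0.633).

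Ccl5, a chemokine gene that draws T cells, stood at 49.3 CPM in bone, 190 in Prf1-/- lung and 165 in WT lung, 3.85-fold (2.99 to 5.05) lower; its UMIs lay in 2.86% of bone cells and 22 of 64 were in 1 cell. Cxcl10, another T cell chemokine, had a ratio of 0.891 (0.789 to 1.00). Cxcl9, induced by interferon-gamma, lay below the filter, with 23.1 CPM in bone and 7.83 in Prf1-/- lung. Of 9 measured genes for lymphocyte ligands and resistance to killing, 2 were lower and none higher: Cd47, the signal that restrains phagocytes, at 0.541 (0.400 to 0.719) and the survival gene Bcl2 at 0.652 (0.464 to 0.898). Over all measured genes 4.72% were lower. The checkpoint ligand gene Cd274 had 2 UMIs in bone and 12 in Prf1-/- lung, too few to compare.

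The series title names mechanical and immune control of site selection, so genes that respond to force were read as well. Of 39 measured actin cytoskeleton and MRTF-SRF genes 5 were lower and 1 higher (median log2 ratio -0.17): Tagln2, Cnn2, Arpc1b, Lmna and Rock1 had ratios of 0.548, 0.546, 0.613, 0.651 and 0.666, and the actin-sequestering thymosin gene Tmsb4x 1.67 (1.52 to 1.83). Over all measured genes 4.72% were lower and 2.3% higher. Lmna encodes the nuclear lamins A and C and stood at 266 CPM in bone, 409 in Prf1-/- lung and 370.2 in WT lung. The 11 measured YAP-TAZ-TEAD genes had 1 higher (Dlc1) and 1 lower (Myof) and a median of -0.05, and the 14 integrin and focal adhesion genes 1 lower, Ptk2 (focal adhesion kinase) at 0.509 (0.306 to 0.807), with a median of 0.03. Of genes tied to bone metastasis and matrix 7 of 38 were measured: Spp1, the osteopontin gene, had a ratio of 1.14 (0.991 to 1.31), the tetraspanin gene Cd9 was lower at 0.658 (0.556 to 0.774), and Pthlh, Tnfsf11, Mmp9 and Cxcr4 had 0 UMIs in every group.

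**Figure D5:**
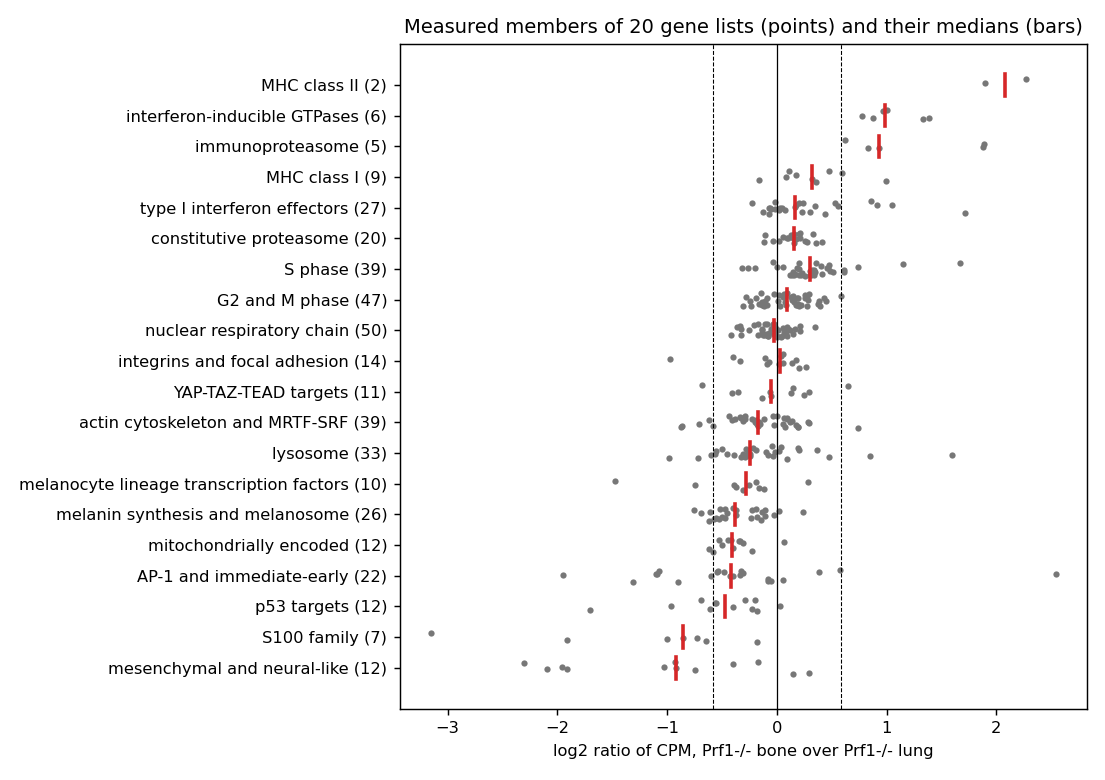
Log2 ratio of CPM, Prf1-/- bone over Prf1-/- lung (x axis), for the measured members (grey points) of 20 gene lists, with the number measured in brackets and the list median as a red bar; dashed lines mark 1.5-fold. Class II, GTPase and immunoproteasome members all lie right of the upper dashed line, while S100 and mesenchymal medians (-0.85 and -0.92) lie left of the lower one.

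Organelle genes divided by genome and by function. The 12 measured mitochondrially encoded genes had a median log2 ratio of -0.41, with 11 below 1 and mt-Nd2 past 1.5-fold at 0.652 (0.606 to 0.700), and the median mitochondrial share of a cell's UMIs was 1.89% in bone, 2.46% in Prf1-/- lung and 2.50% in WT lung. The 50 nuclear genes of the respiratory chain held none past 1.5-fold and a median of -0.03. Of 33 lysosome genes 2 were higher, Hgsnat and Laptm4b at 1.80 (1.44 to 2.25), and 3 lower, with Grn at 0.607 (0.497 to 0.737). Over all measured genes 2.3% were higher and 4.72% lower. Of 28 measured glutathione and metal-binding genes 2 were higher, 1 was lower and 25 lay within 1.5-fold, with a median log2 ratio of 0.05. The transferase gene Gsta4 had a ratio of 1.68 (1.55 to 1.81) and the metallothionein gene Mt2 1.73 (1.54 to 1.94). Endoplasmic reticulum folding genes (24 measured) and hypoxia genes (8 measured) held none past 1.5-fold.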

How the data were processed

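The RNA and hashtag libraries of 1 pooled run were used as the UMI counts that the authors deposited, with 32285 genes and 15961 barcodes in the RNA matrix and 6208 barcodes in the hashtag matrix. Cell Ranger 6.1.2, mm10 and Seurat 4.3.0 appear in the submitters' processing notes, but the file header gives Cell Ranger 6.0.0. Only 4204 RNA barcodes (26.3%) were in both matrices. The smallest hashtag total was 503 counts. The authors' cell annotation was not used here, so group calls may differ from theirs.

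Of 3374 listed barcodes that passed the cell filter, 242 (7.17%) missed the hashtag rule, which removes doublets of different hashtags; doublets within 1 hashtag were not called. UMIs were summed per group and scaled to its total (CPM), with no pseudocount. Ratios have exact conditional binomial intervals, levels exact Poisson intervals and shares Clopper-Pearson intervals, at 95%. In a ratio, 3 UMIs stand in for a group with 0 UMIs. The 15 named genes a side had the most extreme ratios among genes at a mean of at least 20 CPM with at least 50 UMIs over both groups, an interval wholly beyond 1.5-fold and a ratio past it without the top cell of each group; mitochondrial, ribosomal protein and unnamed genes were left out. From each list the 2 members with the most UMIs and the 2 with the most extreme ratios were taken as well, and other members named were chosen after their values were seen. The members and the 37 pathway and 17 marker lists were chosen with earlier results of these data known; 6 list entries matched no symbol. Python 3.11.15, numpy 2.4.6, scipy 1.17.1 and pandas 2.3.3 were used, and the ratios were tested on simulated data. Alternatives changed the cell and hashtag filters, scaling, depth, low-value filter, call rule and cell subsets.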

Additional observations from a re-analysis of the deposited data

Results flagged for a closer look

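Barcodes outside the hashtag matrix belong to no group and entered no comparison, yet they carried Cck. Of 6270 such barcodes that passed the cell filter, 282 (4.50%, Clopper-Pearson interval 4.00 to 5.04) held at least 10 Cck UMIs, a signal in data that no comparison used. The same share was 25.2% in Prf1-/- bone, 2.50% in Prf1-/- lung and 1.96% in WT lung, and 0 of 78 Sftpc-rich barcodes, which by the Clopper-Pearson interval allows up to 4.62%. Their Cck level was 684 CPM, between Prf1-/- lung (293) and Prf1-/- bone (3402). Their summed levels were 434 CPM for the immunoproteasome genes, 34.5 for MHC class II and 3380 for MHC class I, and Psmb8 stood at 67.1. Which sources these barcodes came from is not known.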

How the results depend on the processing

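No paired analysis was possible because the labels give 1 hashtag group a side and no replicates; for the same reason no replicate could be left out. Of 20 alternatives, 1 was chosen after seeing the data (cells with 400 to under 1000 hashtag counts). Over the 17 that give each gene a value of its own, which are all but the low-value filters and the interval rule, all 30 named genes kept their direction and 29 stayed past 1.5-fold. Iigp1 moved to a log2 ratio of 0.13 among cells with at least 2000 genes (47 bone and 145 lung cells). The naming rule already asked for a ratio past 1.5-fold without the top cell of each group, so that alternative could not fail. Some others changed little. A limit of 10% mitochondrial UMIs left 385 bone and 1519 lung cells, and 1 scaling factor was 0.995. The counts of genes higher and lower were 555 and 724 in those cells, 563 and 681 in cells without cycling UMIs, 42 and 78 at a mean of at least 50 CPM and 509 and 927 at 5 CPM; the count higher was 236 after thinning to 2000 UMIs and 201 at 400 to under 1000 hashtag counts. The MHC class II median log2 ratio, on 2 genes, was 1.22 with at least 2000 genes, 1.61 with hashtags called by centred log ratio, 1.80 without Cck-rich cells, 2.86 and 1.47 in cells with 0 and with 2 or more cycling UMIs, and 3.82 at 400 to under 1000 hashtag counts, with no member left at 50 CPM. The GTPase median was 0.58 with at least 2000 genes and 1.60 at 400 to under 1000 hashtag counts. The Cck ratio was 9.26 with at least 2000 genes, 15.1 with a 4-fold hashtag margin, 13.04 as a mean of per-cell CPM, 12.6 thinned, 12.7 without the 5% of cells with the most UMIs, 1.92 without Cck-rich cells, and 29.9 and 8.27 in cells with 0 and with 2 or more cycling UMIs. Of 37 list medians, 17 took both signs over the alternatives, 13 of which lay within 0.1 of 0 at the settings of the report. The other 4 were the type I interferon effectors (-0.089 with at least 2000 genes), chemokines (0.24 at 400 to under 1000 hashtag counts), and lymphocyte ligands (0.037) and galectins (0.16) in cells with 2 or more cycling UMIs. The S-phase median ranged from 0.01 to 0.50 and the mitotic median from -0.21 to 0.25 over all alternatives. Several alternatives held fewer cells, and leaving out Cck-rich cells removes most Cck UMIs of bone by its rule. The causes of these shifts were not tested. Depth limits genes under about 20 CPM in bone, where 3 UMIs are 2.31 CPM.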

Other observations

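Glycolysis and sterol genes were not described above. Of 18 measured glycolysis and lactate transport genes 2 were higher in bone, the enolase gene Eno1 at a ratio of 1.51 (1.34 to 1.70) and Slc16a7, and the median log2 ratio was 0.08. Of 29 measured cholesterol and fatty acid synthesis genes only Mvd, which makes isopentenyl diphosphate, passed 1.5-fold, at 1.71 (1.36 to 2.14). The cytokine gene Mif stood at 2090.1 CPM in bone, 1558 in Prf1-/- lung and 1504 in WT lung.

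The stress genes Ddit3 and Nupr1 had the same ratio of 0.553 in bone, with intervals of 0.459 to 0.663 and 0.428 to 0.705, beside 16 other measured ATF4 and amino acid stress genes within 1.5-fold. Of 16 measured core and linker histone genes 12 had a ratio above 1, beside 47.1% of all measured genes, and the median log2 ratio was 0.24. Only the linker histone gene Hist1h1c passed 1.5-fold, downwards, with a ratio of 0.520 (0.374 to 0.707). Egfl7, the only measured endothelial marker, stood at 30.0 CPM in bone and 13.5 in Prf1-/- lung, while Pecam1, Cdh5, Kdr, Cldn5 and Tie1 had 0 UMIs in both. The endothelial marker Vwf, below the filter, went the other way. It stood at 12.3 CPM in bone and 16.9 in Prf1-/- lung, a ratio of 0.727 (0.397 to 1.25). Pmp22, a myelin gene, stood at 4.62 CPM in bone and 26.0 in Prf1-/- lung.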
